A study of Mus musculus with 7 samples.

Results

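Chromatin accessibility was examined around 2 clusters of forkhead genes, Foxf1, Foxc2 and Foxl1 with the long non-coding RNA gene Fendrr on mouse chromosome 8, and Foxq1, Foxf2 and Foxc1 on chromosome 13. The members were chosen by position: every deposited ATAC-seq peak within 150 kb of either cluster (build GRCm38) was taken, which gave 1085 of the 1576862 peaks in 7 libraries, and each was assigned to the nearest start site of these 7 genes. Peaks with a q-value of at most 0.01 that overlapped between libraries were merged into regions, kept where at least 2 libraries contributed, and 40 of the 71981 regions of the genome lay in the 2 windows (22 on chromosome 8 and 18 on chromosome 13). The windows thus followed gene positions, whereas the regions within them depended on the measured q-values.

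All libraries came from sorted cells of the microdissected second heart field (SHF) region of mouse embryos at E9.5, several embryos being pooled for each sort. GFP+ cells (n = 2, replicates 3 and 4) and GFP- cells (n = 2, replicates 1 and 2) were taken from Hoxb1GFP embryos, in which GFP is read from the Hoxb1 locus and marks the posterior SHF; this allele also serves as the Hoxb1 null allele of the study, and the number of copies in the sorted embryos was not given in the sources used here. Tomato+ cells (n = 2, replicates 6 and 8) and Tomato- cells (n = 1, replicate 7) were isolated from embryos of the Mef2c-Cre;Rosa tdT cross, where a Cre driven by an SHF enhancer of Mef2c switches on a red fluorescent protein in the outflow tract and right ventricle lineage. The negative fractions hold whatever else the dissected tissue contained, and some cells of the posterior SHF carry both labels, so the 4 groups are not separate cell types. Since GFP+ and Tomato+ cells also come from different mouse lines, line and sort cannot be told apart between them. A transposase cuts open chromatin in this assay, and in bulk cells fewer open cells and less cutting per cell cannot be told apart.

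Forkhead proteins bind DNA through a winged-helix domain. Foxf1 and Foxf2 are expressed in splanchnic mesoderm under Hedgehog signalling, Foxc1 and Foxc2 act in pharyngeal mesoderm, outflow tract and vessels, and Foxl1 is best known from the mesenchyme of the gut. Fendrr is transcribed divergently from Foxf1 and is required in the lateral mesoderm that forms heart and body wall, whereas Foxq1 is known from epithelial cells and hair.

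The libraries held between 187914 and 291287 peaks, of which 64306 to 77746 had a q-value of at most 0.01, and the background levels in the lists correspond to between 52340120 and 93074895 tags. Each peak carries a fold enrichment, the number of tags stacked at its summit divided by the local background with 1 added to both. Over 19782 protein-coding genes, 51.8% passed q at most 0.01 in every one of the 7 libraries in the start-site window, set from 1000 bases upstream to 100 bases downstream. Of 6 listed genes of the posterior SHF, among them Foxf1, 5 passed in both GFP+ libraries, 3 in both Tomato+ libraries, 3 in both GFP- libraries and 4 in the Tomato- library, and of 5 genes of the anterior SHF 3, 3, 3 and 4 did. Taken singly, Tomato+ replicate 8 and GFP- replicate 2 also passed at 5 of the 6 posterior genes, and Tomato+ replicate 6 and GFP- replicate 1 at 3. The Tomato- count rests on 1 library, the others on 2. For other cell types of the dissected tissue, passes in every library were found at 3 of 5 neural tube genes, at 1 of 5 genes each of myocardium, endothelium and neural crest, and at 0 of 5 genes each of blood and endoderm. In the Tomato- library alone, 3 of 5 blood genes and 3 of 5 endothelial genes passed, against 0 to 2 and 1 to 2 in the other 6 libraries. That library also had the most tags and the most peaks with q at most 0.01. Endoderm and neural crest genes passed most often in GFP+ replicate 4 and Tomato+ replicate 8, at 3 of 5 each. Myocardial genes did so in Tomato+ replicate 6, at 4 of 5, against 1 in Tomato+ replicate 8. The part of such cells in the values given here was not tested.

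The chromosome 8 window was crowded with weak peaks. It spanned 376 kb (chr8:120904882-121280644), and each library had 86 to 105 peaks there, or 229 to 279 per Mb, against 73 to 113 per Mb over the genome. Peaks with q at most 0.01 numbered 15 to 29 per library, 39.9 to 77.2 per Mb against 24.8 to 29.9 per Mb. The density was higher than that of the genome in all 7 libraries, by 1.47 to 2.81 times for the q-filtered peaks. The peaks themselves were not tall: their median fold enrichment was 2.46 to 2.78, below the genome's median in every library (2.59 to 2.96), and the local background under them was 1.36 to 1.53 times the genome's background level. The window was also rich in G and C, at 51.5% of bases against 41.8% for the genome, and the part of base composition in these counts was not tested.

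**Figure D1:**
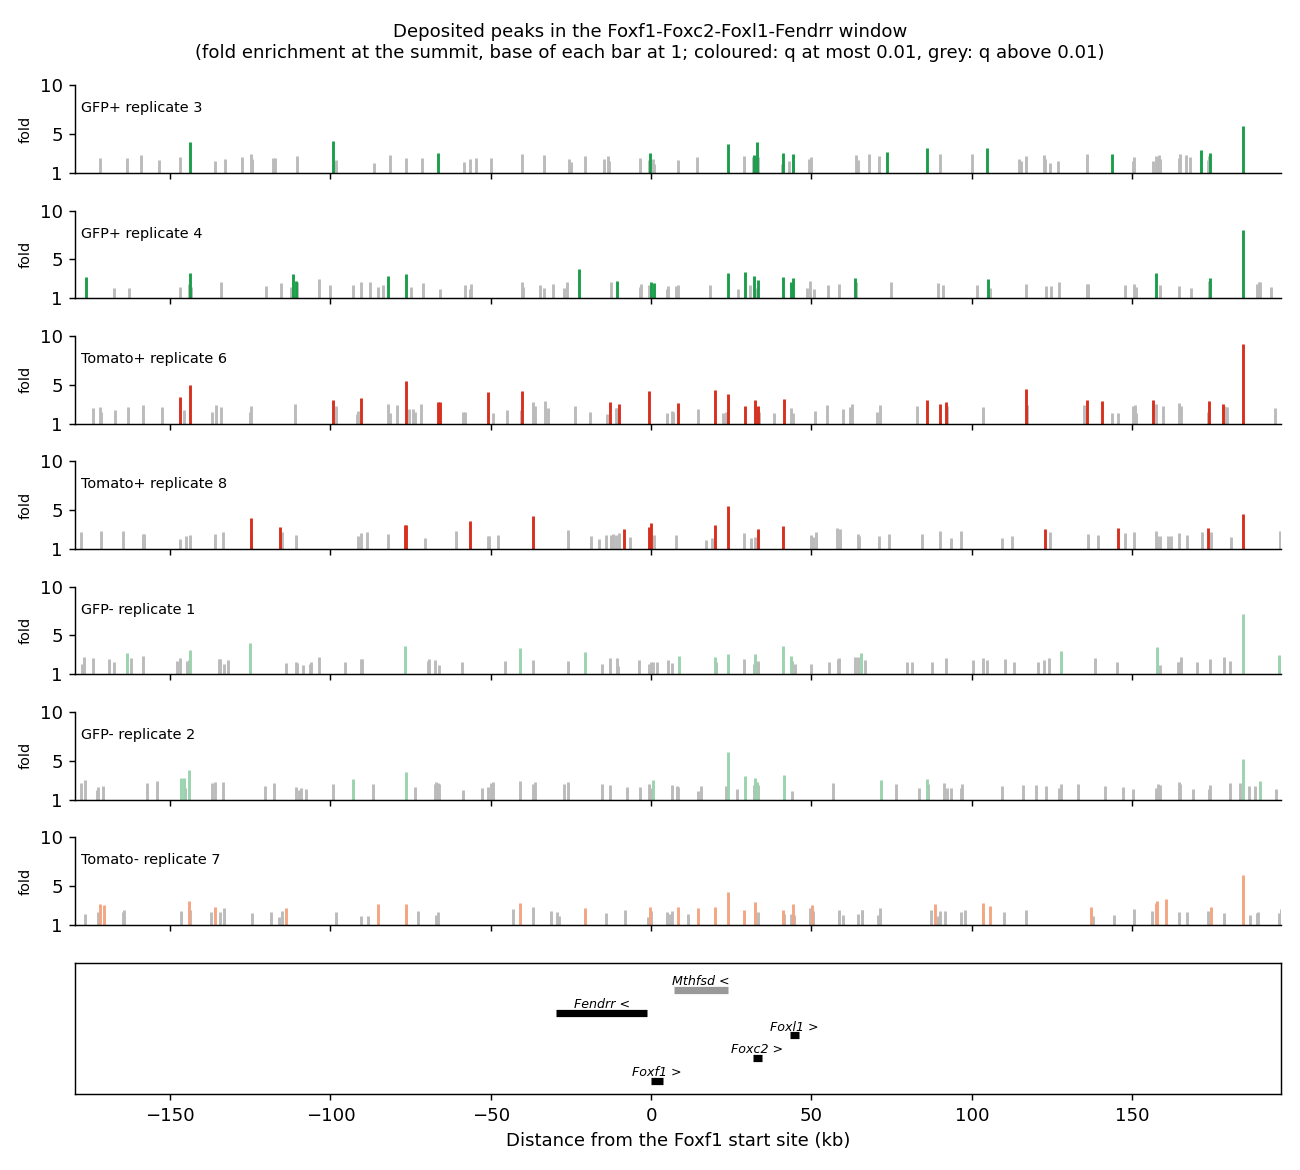
Fold enrichment of every deposited peak in the chromosome 8 window (y axis, from 1 to 10) by its distance from the Foxf1 start site in kb (x axis), with 1 panel for each of the 7 libraries and the genes drawn beneath, an arrowhead giving the strand. Coloured bars have q at most 0.01 and grey bars do not; the bar near the right edge, 4.56 to 9.19 in the 7 libraries, stands in repeated sequence.

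The chromosome 13 window lay closer to the genome. It spanned 552 kb (chr13:31408170-31960635) with 43.9% G and C, and held 47 to 80 peaks per library, or 85.1 to 145 per Mb, of which 14 to 20 had q at most 0.01 (25.3 to 36.2 per Mb). The q-filtered peaks stood nearer to the genes than on chromosome 8: 38.3% of 120 lay within 5 kb of a member's start site, against 24.3% of 144 on chromosome 8, and 14.2% lay beyond 50 kb, against 49.3%. Genes at the ends of a cluster take every peak of the flank, so counts per gene depend on the space around it. Over the 7 libraries Foxl1 and Fendrr, at the outer ends of their cluster, were nearest to 57 and 49 q-filtered peaks, Foxf1 and Foxc2 between them to 12 and 26, and Foxq1, Foxf2 and Foxc1 to 41, 23 and 56.

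**Figure D2:**
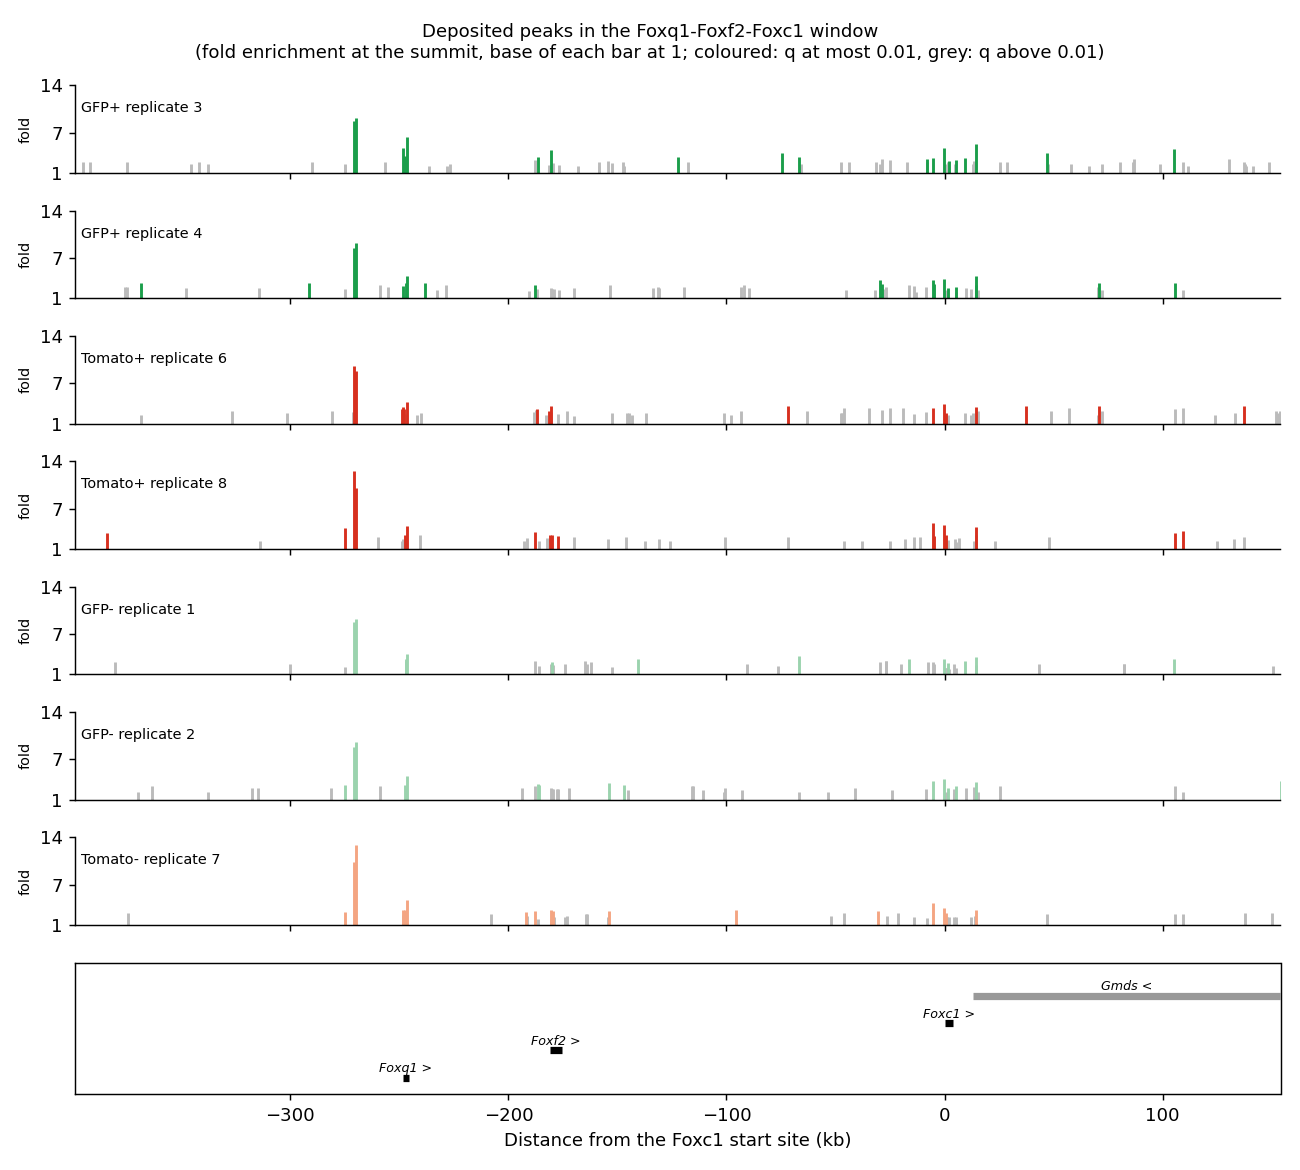
Fold enrichment of every deposited peak in the chromosome 13 window (y axis, from 1 to 14) by its distance from the Foxc1 start site in kb (x axis), with 1 panel for each of the 7 libraries and the genes beneath. Coloured bars have q at most 0.01; the pair of tall bars to the left of Foxq1, from 8.52 to 12.8 in the 7 libraries, stands in repeated sequence, and the next tallest bars mark Foxq1, Foxc1 and a region at the end of Gmds.

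Most regions had q at most 0.01 in a single library. When a region was kept with a q-filtered peak of any 1 library, the windows held 130 regions. Of these, 40 passed the q threshold in at least 2 libraries and 90 in 1 only. The part passing in at least 2, 30.8%, compares with 34.2% over the genome. Peaks of other libraries that missed the threshold were not counted here. Among the 40 regions, 12 had q at most 0.01 in exactly 2 libraries, 20 in 3 to 6 and 8 in all 7. These 8 regions are 20% of the members, while 32.8% of all 71981 regions passed in all 7 libraries. By the RefSeq annotation, 26 of the 40 had their centre in intergenic sequence, 5 in introns and 9 in exons, and 14 lay within 5 kb of a member's start site.

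**Figure D3:**
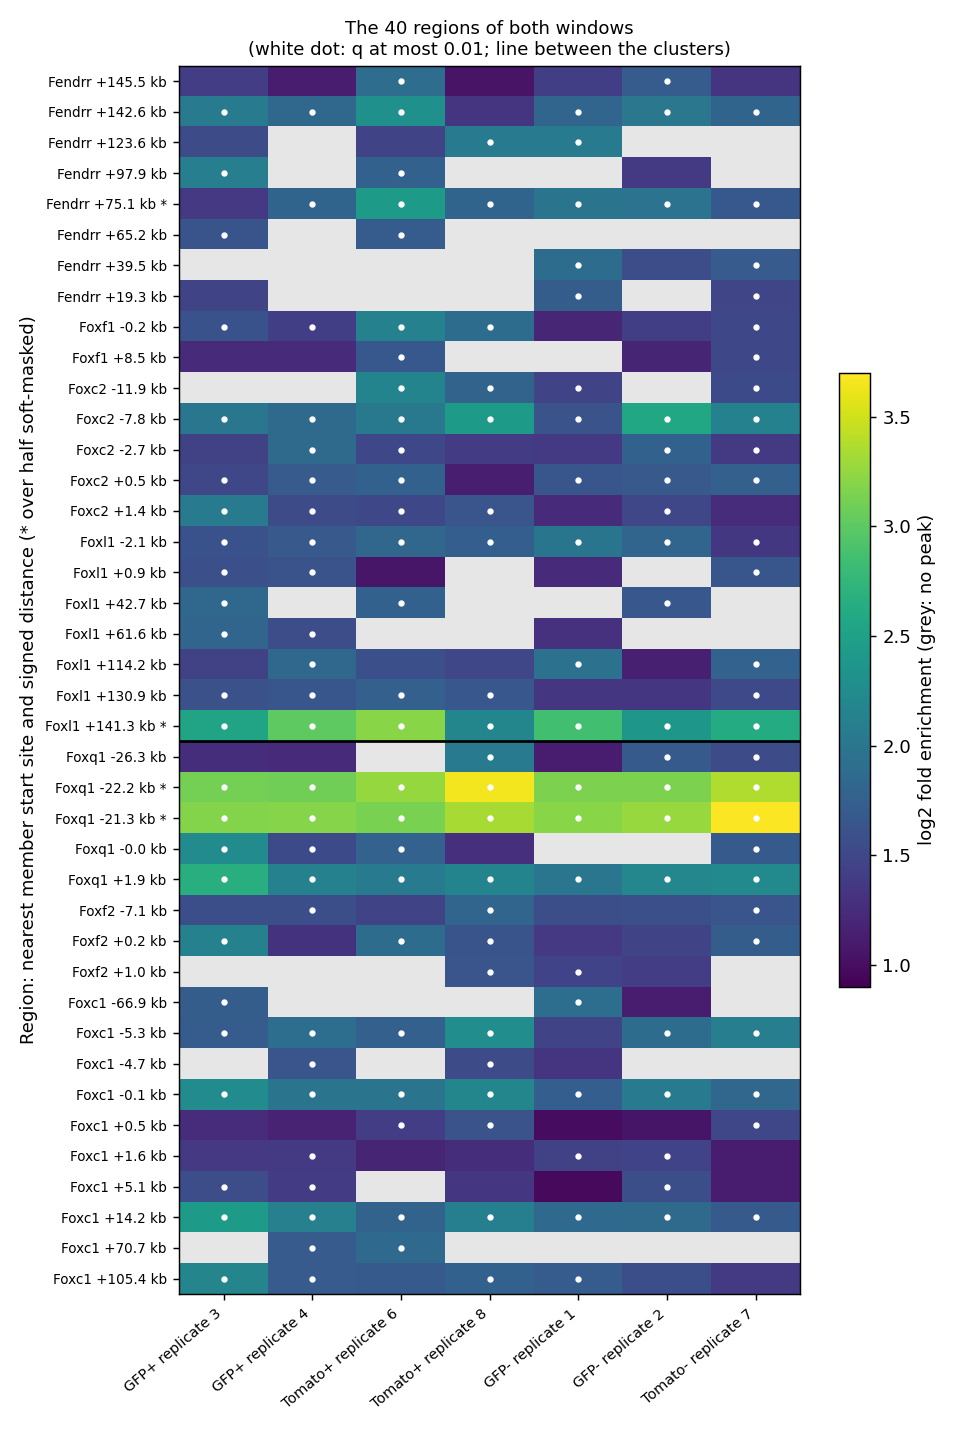
The 40 regions in genome order (rows, named by the nearest member's start site and the signed distance in kb along that gene's strand, chromosome 8 above the line) in the 7 libraries (columns). Colour gives log2 fold enrichment, grey no deposited peak and a white dot q at most 0.01; a row with 7 dots is a region shared by all libraries, and the 4 rows marked * lie mostly in repeated sequence.

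Foxc1, a regulator of mesoderm and vessels, had the most evenly open promoter of the 7 members. Its start site (chr13:31806646, plus strand) was covered by a region at chr13:31806094-31806763. The fold enrichment was 4.75 and 3.94 in GFP+ cells, 3.93 and 4.55 in Tomato+ cells, 3.33 and 4.13 in GFP- cells and 3.54 in Tomato- cells, with q at most 0.01 in all 7 libraries. The GFP+, Tomato+ and GFP- values overlapped, while the single Tomato- library lay below both GFP+ and both Tomato+ libraries. The peak ranked between 7.26% and 23.2% from the top of each library's list. No other member passed in every library, which leaves 1 of 7 against the 51.8% of protein-coding genes given above. Even there the level was moderate, since the median gene with a start-site peak in all 7 libraries had a mean fold enrichment of 6.03.

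The 250 bases before the Foxc1 start site (RefSeq, GRCm38.p6, chr13:31806396-31806645, plus strand) are shown with those before the Foxf2 start site (chr13:31625566-31625815, plus strand), because both lie under peaks, one in every library and the other in some. The letters of 7 motifs were searched on both strands: CCACCCA for GLI factors, TGATNNAT for HOX with PBX, AGGTGTG for TBX, AGATAA for GATA factors, TGTTTAC for forkhead proteins, GGAATG for TEAD and TGACAG for MEIS. None of them occurred in either sequence, so no base is in capitals.
Foxc1 promoter: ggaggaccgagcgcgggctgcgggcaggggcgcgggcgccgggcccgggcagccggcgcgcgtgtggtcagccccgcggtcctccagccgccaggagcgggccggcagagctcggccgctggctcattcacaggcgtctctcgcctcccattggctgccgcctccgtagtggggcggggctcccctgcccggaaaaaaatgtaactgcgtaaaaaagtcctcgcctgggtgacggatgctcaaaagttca
Foxf2 promoter: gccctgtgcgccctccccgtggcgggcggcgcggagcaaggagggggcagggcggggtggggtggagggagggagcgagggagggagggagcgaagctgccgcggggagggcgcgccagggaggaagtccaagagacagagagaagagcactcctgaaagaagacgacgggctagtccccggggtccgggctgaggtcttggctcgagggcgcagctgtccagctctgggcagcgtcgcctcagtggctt
Both are rich in G and C, at 70.8% and 71.6%. In the RefSeq windows from 250 bases before to 50 after the start, the observed over expected CpG was 0.943 for Foxc1, 0.787 for Foxf2 and 0.997 for Fendrr, against a median of 0.384 over 32851 promoters; entries were found for 3 of the 7 members, and those of Foxf1, Foxc2, Foxl1 and Foxq1 were not used here.

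The region at the Foxf2 start had a peak in all 7 libraries and q at most 0.01 in 4 of them. Its start site (chr13:31625816, plus strand) lies in a region at chr13:31625574-31626365 whose centre is in the 5' UTR. The fold enrichment was 4.39 and 2.49 in GFP+ cells, 3.69 and 3.10 in Tomato+ cells, 2.57 and 2.79 in GFP- cells and 3.30 in Tomato- cells. Both GFP- libraries and GFP+ replicate 4 had q above 0.01, and GFP+ replicate 3 was the highest of the 7, so that the GFP+ pair spanned the range of the other groups. In GFP- replicate 2 the peak began more than 100 bases downstream of the start, outside the start-site window.

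Foxq1 was the member whose start-site region passed q at most 0.01 in both GFP+ libraries and had no peak in GFP- cells. The region over its start (chr13:31558034-31558510; start at 31558170, plus strand) had a fold enrichment of 4.76 and 2.90 in GFP+ cells, 3.42 and 2.44 in Tomato+ cells and 3.23 in the Tomato- library, and no deposited peak in either GFP- library. Among all regions, 1.62% had q at most 0.01 in both GFP+ libraries and no peak in either GFP- library, and among the members it was 1 of 40, or 2.5%. The peak of Tomato+ replicate 8 missed the q threshold, so both Tomato+ libraries had a peak and 1 of them passed. A wider region further into the gene, in its coding exon 1.85 kb from the start (chr13:31558871-31560177), was open in all 7 libraries, at 6.31 and 4.39 in GFP+, 4.15 and 4.49 in Tomato+, 4.0 and 4.58 in GFP- and 4.69 in Tomato- cells. By its mean over the libraries that region was the tallest in either window outside repeated sequence. GFP+ replicate 3 stood above the other 6 libraries, and the GFP+, Tomato+ and GFP- values overlapped. The single Tomato- library lay above both Tomato+ and both GFP- libraries.

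On chromosome 8, Foxf1 (start at chr8:121084386, plus strand) and Fendrr (start at chr8:121083110, minus strand) start 1.28 kb apart and share a region at chr8:121083644-121084692. Its fold enrichment was 3.04 and 2.68 in GFP+ cells, 4.37 and 3.69 in Tomato+ cells, 2.3 and 2.67 in GFP- cells and 2.84 in Tomato- cells. Both Tomato+ libraries stood above the other 5, and both GFP- libraries had q above 0.01. GFP- replicate 2 and GFP+ replicate 4 were nearly equal, and their order turned on the normalised values. The GFP+ minus Tomato+ difference of log2 fold enrichment was -0.49 (SE 0.219, 95% interval -0.973 to -0.015), with an adjusted p of 0.563 by limma (unadjusted p 0.0442), so it was not called. Summit pileup for every 1000000 tags of the library placed both Tomato+ libraries first as well, at 0.269 and 0.248 in GFP+, 0.459 and 0.324 in Tomato+, 0.197 and 0.218 in GFP- and 0.236 in Tomato- cells. In the start-site window of Fendrr itself the best peak was that of Foxf1 in 3 libraries and a lower one in 4, and 3 of the 7 libraries, both Tomato+ and the Tomato- library, had q at most 0.01.

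For Foxc2 and Foxl1, a region reaching into the gene or upstream of it had peaks in more libraries than the start-site window did. The Foxc2 window (start at chr8:121116171, plus strand) had a peak in 4 libraries, at 2.62 and 2.4 in GFP+ cells, 2.16 in Tomato+ replicate 8 and 3.40 in Tomato- cells, and none in GFP- cells or Tomato+ replicate 6. The Tomato- library was the only one with q at most 0.01. A region whose centre lies 0.515 kb inside the gene, in its coding exon (chr8:121116219-121116938), had a peak in all 7 libraries, at 2.81 and 3.27 in GFP+, 3.41 and 2.19 in Tomato+, 3.15 and 3.20 in GFP- and 3.40 in Tomato- cells. Tomato+ replicate 8 was the only library above the q threshold there. This region overlaps the downstream end of the start-site window, and the Tomato- peak is the same peak in both. The contrast for Foxc2 therefore depends on where the window ends. The Foxl1 window (start at chr8:121127685, plus strand) held 1 peak in 1 library, GFP+ replicate 3, at 2.26 with q above 0.01. A region 2.14 kb upstream of Foxl1 (chr8:121125108-121125889, intergenic) was open throughout instead, at 3.05 and 3.21 in GFP+, 3.54 and 3.34 in Tomato+, 3.96 and 3.52 in GFP- and 2.56 in Tomato- cells, all with q at most 0.01. The GFP- libraries did not overlap the GFP+ libraries at this region, and the GFP+ minus GFP- difference was -0.29 (SE 0.211, adjusted p 0.874, limma).

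**Figure D4:**
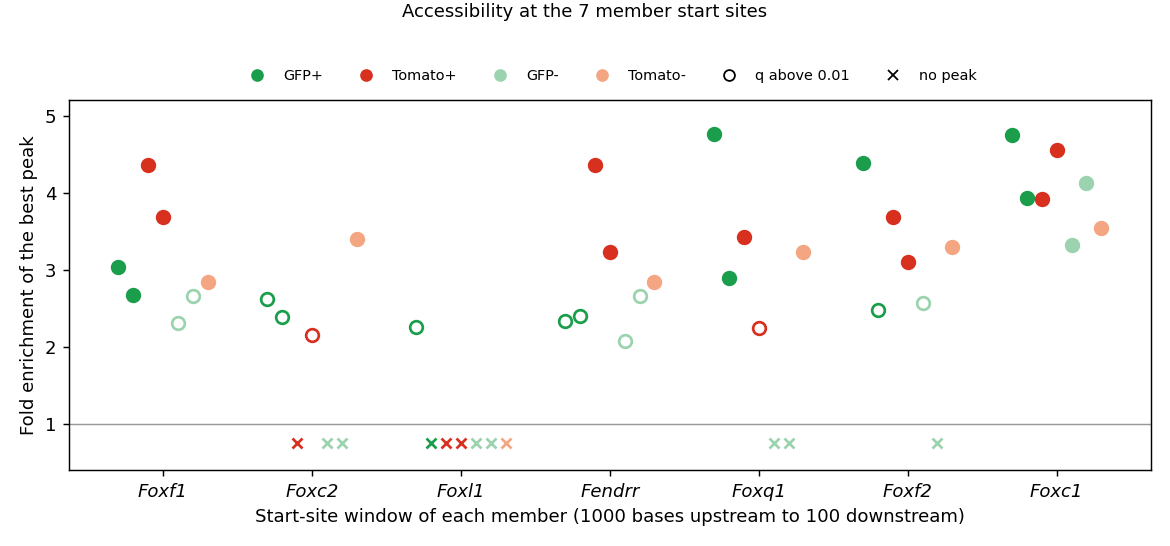
Fold enrichment of the best peak in the start-site window of each of the 7 members (x axis) in the 7 libraries, GFP+ and GFP- in green, Tomato+ and Tomato- in red, with open circles for q above 0.01 and crosses for no peak. Foxc1 has 7 filled circles between 3.33 and 4.75, Foxl1 a single open circle at 2.26, and both Tomato+ points of Foxf1 stand above its other 5 points.

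The other tall regions of the chromosome 8 window were the start site of the neighbouring gene Mthfsd, a region far from Fendrr, and 2 regions in repeated sequence. At the Mthfsd start (chr8:121107976-121108553, 7.78 kb upstream of Foxc2) the fold enrichment was 4.0 and 3.64 in GFP+, 4.10 and 5.38 in Tomato+, 3.07 and 5.94 in GFP- and 4.38 in Tomato- cells, all with q at most 0.01. The GFP- replicates bounded the range there. At chr8:120940264-120940749, intergenic and 143 kb from the Fendrr start, the values were 4.18 and 3.60 in GFP+, 4.94 and 2.49 in Tomato+, 3.51 and 4.03 in GFP- and 3.48 in Tomato- cells, and Tomato+ replicate 8 alone missed the q threshold. On chromosome 13 the region 5.28 kb upstream of Foxc1 (chr13:31801141-31801700, intergenic) had 3.28 and 3.77 in GFP+, 3.38 and 4.84 in Tomato+, 2.77 and 3.71 in GFP- and 4.28 in Tomato- cells, with q above 0.01 only in GFP- replicate 1.

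The region at chr13:31820631-31821129, in intron 9 of Gmds and 14.2 kb beyond the Foxc1 start, was one of the 8 open in all libraries and the one with the largest positive GFP+ minus Tomato+ difference. The fold enrichment was 5.36 and 4.35 in GFP+, 3.47 and 4.31 in Tomato+, 3.62 and 3.65 in GFP- and 3.24 in Tomato- cells. Both GFP+ libraries stood above the other 5, by a narrow margin over Tomato+ replicate 8. The difference was 0.35 (SE 0.223, 95% interval -0.142 to 0.835) with an adjusted p of 0.697, and against GFP- cells it was 0.36 (SE 0.223, adjusted p 0.852, both limma). The 201 bases around its centre (GRCm38, chr13:31820774-31820974, plus strand) are given because this is the nearest region to Foxc1 outside the gene that every library shared; they hold none of the 7 motifs.
Gmds intron element: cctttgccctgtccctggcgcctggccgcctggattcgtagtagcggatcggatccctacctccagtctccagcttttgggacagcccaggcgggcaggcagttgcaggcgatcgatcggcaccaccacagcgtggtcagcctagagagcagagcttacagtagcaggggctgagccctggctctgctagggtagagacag

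Of the 40 regions, 4 lay in repeated sequence, where short reads can come from other copies; their part in these values was not tested. Upstream of Foxq1, by 22.2 and 21.3 kb, the regions chr13:31535882-31536134 and chr13:31536747-31536989 reached 8.52 to 12.5 and 8.80 to 12.8 in the 7 libraries, the highest means among the members. Their bases were soft-masked as repeats in the reference for 89.7% and 100% of their length, and the 31-base words at their centres occurred a median of 855 and 1015 times in the genome. A region 141 kb from Foxl1 (chr8:121268863-121269127) had 5.78 and 8.03 in GFP+, 9.19 and 4.56 in Tomato+, 7.24 and 5.2 in GFP- and 6.16 in Tomato- cells, with a median of 6 copies, and one 75.1 kb from Fendrr (chr8:121007660-121008149) had 2.57 and 3.50, 5.36 and 3.49, 3.94 and 3.90, and 3.18 in the same order, with 13 copies. At the other 36 regions the median was 1 copy. Regions at least 50% soft-masked made up 4 of the 40 members and 30.7% of all regions. Without them 5 members, not 8, were shared by all 7 libraries: the Foxc1 start, the Gmds intron, the Foxq1 coding exon, the region upstream of Foxl1 and the Mthfsd start.

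To ask whether any region was open in 1 sorted population and closed in the other, presence was compared. A single region had q at most 0.01 in both GFP+ libraries and no peak in either Tomato+ library, 1 of 40 members against 1.51% of all regions, and a single region showed the reverse, against 1.16%. The GFP+ element (chr8:121189220-121189446, intergenic, 61.6 kb beyond Foxl1) had 3.52 and 2.94 in GFP+ cells and 2.45 in GFP- replicate 1, with no peak elsewhere. The Tomato+ element (chr8:121104197-121104436, in intron 4 of Mthfsd, 11.9 kb upstream of Foxc2) had 4.46 and 3.45 in Tomato+ cells, 2.78 in GFP- replicate 1 and 2.89 in Tomato- cells, and no peak in GFP+ cells or GFP- replicate 2. Neither was confined to the population that defined it, since a negative library carried a peak at both. Without GFP+ replicate 3 the first count was 0, and without either Tomato+ library it was 2; without Tomato+ replicate 6 the second was 2.

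Between labelled and unlabelled cells of the same mouse line, besides the Foxq1 start, 0 of 40 members had q at most 0.01 in both GFP- libraries and no peak in GFP+ cells (1.4% of all regions), and 0 of 40 were found in both Tomato+ libraries and not in the Tomato- library (1.95%). The reverse, the Tomato- library with q at most 0.01 and no peak in Tomato+ cells, was found at 2 of 40 members (4.07% of all regions), both nearest to Fendrr. The one at chr8:121043369-121043705, intergenic and 39.5 kb beyond the Fendrr start, had 3.7 and 2.94 in GFP- cells and 3.26 in Tomato- cells and no peak in any of the 4 labelled libraries. GFP- replicate 2 missed the q threshold at this region. The other, chr8:121063536-121063919 in intron 4 of Fendrr, had 2.77 in GFP+ replicate 3, 3.31 in GFP- replicate 1 and 2.8 in Tomato- cells. Intron 4 of Fendrr therefore had a peak in 1 library each of 3 groups, and without GFP- replicate 1 neither region was kept in this class.

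The sequences of 3 of these regions, those with no peak in Tomato+, GFP+ or any labelled library, are shown for the 201 bases around their centres (GRCm38, plus strand), at chr8:121189170-121189370, chr8:121104160-121104360 and chr8:121043540-121043740. Capitals mark CCACCCA, the GLI letters, the only match of the 7 searched; it was found in the GFP+ element and in that of the unlabelled cells, and not in the Tomato+ element.
GFP+ element: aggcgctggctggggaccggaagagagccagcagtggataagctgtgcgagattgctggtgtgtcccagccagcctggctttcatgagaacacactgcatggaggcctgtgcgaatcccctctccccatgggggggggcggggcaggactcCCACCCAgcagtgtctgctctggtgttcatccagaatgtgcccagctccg
Tomato+ element: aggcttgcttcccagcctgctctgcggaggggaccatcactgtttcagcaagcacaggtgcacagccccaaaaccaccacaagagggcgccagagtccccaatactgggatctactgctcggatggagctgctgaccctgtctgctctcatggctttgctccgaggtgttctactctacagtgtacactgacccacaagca
GFP- and Tomato- element: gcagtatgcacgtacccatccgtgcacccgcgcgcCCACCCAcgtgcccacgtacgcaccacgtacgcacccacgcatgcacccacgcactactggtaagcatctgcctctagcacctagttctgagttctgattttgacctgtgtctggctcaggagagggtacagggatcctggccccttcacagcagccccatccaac
A match says only that the letters are present. The GLI letters stood in 6 of the 40 members and in 7.39% of all 71981 regions of this length, the MEIS letters in 7 of 40 and 13.1%, the TEAD letters in 4 of 40 and 10.1%, the HOX-PBX letters in 2 of 40 and 6.26%, and the TBX, GATA and FOX letters in 1 of 40 each, against 4.18%, 5.37% and 1.74%.

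Heights were compared by limma on quantile-normalised log2 fold enrichment over the 33859 regions with a peak in all 7 libraries, 23 of them members. At an adjusted p of at most 0.1, 0 members and 0% of all regions were called between GFP+ and Tomato+, between GFP+ and GFP-, or between Tomato+ and Tomato-. An unadjusted p under 0.05 was reached by 2929, 2114 and 1202 regions, of which 1, 0 and 0 were members, the first being the Foxf1 and Fendrr start. When a fold enrichment of 1 was entered for libraries without a peak, 2078 regions were called between GFP+ and Tomato+ and 1944 between GFP+ and GFP-, among them 0 and 1 of the 40 members. That member was the intergenic region 39.5 kb beyond the Fendrr start, at -1.74 (SE 0.234, adjusted p 0.0539, limma). No labelled library had a peak there, so all of them held the same entered value and added no spread. The call therefore restates the absence of peaks and is no separate measure of a difference. Over the 23 members the GFP+ minus Tomato+ difference ran from -0.56 to 0.35 with a median of -0.03, against a median of 0.01 for all regions, and standard errors of 0.206 to 0.347. The interaction of label and embryo line gave 0 calls as well. In simulated data of the same size, the GFP+ against Tomato+ fit recovered 0% of changes of 0.5 on the log2 scale, 24% of changes of 1, 76% of changes of 2 and 98% of changes of 3. That simulation planted 50 changes of each size, with normal noise and spreads shuffled between regions. Changes of 0.5, close to the largest difference seen at the members, were thus not recovered under these settings. Other numbers of changed regions and other depths were not tested. The intervals of 22 of the 23 members included 0.

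**Figure D5:**
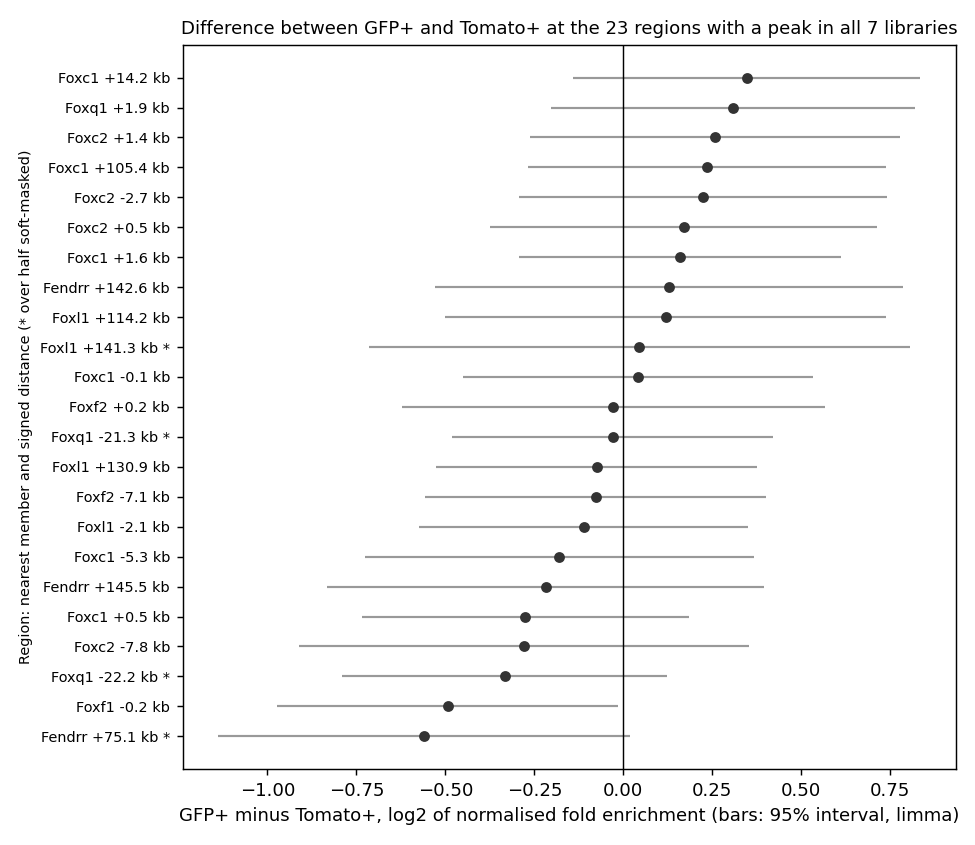
GFP+ minus Tomato+ difference of normalised log2 fold enrichment (x axis; points, with bars for the 95% interval of limma) for the 23 member regions with a peak in all 7 libraries, ordered by the difference. The interval of the Foxf1 and Fendrr start ends at -0.015, while the other 22 include 0, and no region was called after adjustment.

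The order of the libraries on the normalised log2 scale is given as a description. Both Tomato+ libraries exceeded both GFP+ libraries at 8 of the 23 members (34.8%, against 18.5% of all regions), and the reverse held at 3 (13%, against 19.6%). The 8 were the Foxf1 and Fendrr start, the Mthfsd start, the regions 2.14 kb upstream of Foxl1, 0.516 kb inside Foxc1 and 131 kb beyond Foxl1, and 3 of the 4 repeated regions. The 3 were the Foxq1 coding exon, the Gmds intron and a region 1.61 kb inside Foxc1. On the fold enrichment as deposited, a check chosen after seeing the data, the counts were 6 (20.2% of all regions) and 2 (17%): the regions 21.3 kb upstream of Foxq1 and 75.1 kb from Fendrr left the first set, and the Foxq1 coding exon, where the groups overlapped, left the second. Against GFP- cells, both GFP+ libraries were higher at 4 of 23 (19.2% of all regions) and lower at 7 of 23 (18.1%), and as deposited at 5 (21.9%) and 6 (15.7%). Both Tomato+ libraries stood above the single Tomato- library at 10 of 23 members (43.5%, against 30.6% of all regions). They stood below it at 4 (17.4%, against 31.1%). The Tomato+ and Tomato- order was not checked on the fold enrichment as deposited. With 2 libraries in each group an exact permutation test cannot give a two-sided p below 0.333.

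The promoters whose accessibility followed each member most closely over the 7 libraries were found by Pearson's r among 14340 genes with a start-site region in all of them. For the Foxf1 and Fendrr start they were Rpl13a (r = 0.989), En2 (0.976) and Tmem170b (0.966). Foxc2 was followed by Gja3 (0.993), Tmem254a (0.980) and Actr5 (0.972), Foxf2 by Eif4a1 (0.980), Lypla2 (0.966) and Cdkl2 (0.951), and Foxc1 by Dync2li1 (0.978), Samd5 (0.949) and Rprm (0.947). Foxl1 and Foxq1 had no such region. With 7 points that share their libraries and depth, between 23 and 42 genes reached 0.9 for each member, so these values are a description.

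Fixed lists of related genes were counted by start-site windows that passed q at most 0.01 in each of the 7 libraries. It held for 8 of 14 genes of Hedgehog signalling and its splanchnic mesoderm partners, and for 3 of 10 splanchnic mesoderm genes. Of genes linked to Foxc1 and Foxc2 in pharyngeal, somitic and vascular mesoderm 6 of 12 passed, and of other forkhead genes 18 of 36. The median fold enrichment of those with a peak in all libraries was 5.17, 3.72, 5.54 and 5.05, compared with 6.03 for all protein-coding genes. Among the members only Foxf1, Fendrr and Foxc1 had such peaks, with a median of 3.09, and Foxf1 and Fendrr share a region. No gene of these 4 lists had start-site peaks with q at most 0.01 in both GFP+ libraries and no deposited peak in Tomato+ cells, or the reverse; over the genome 16 and 12 genes did.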

How the data were processed

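ATAC-seq reads of 7 libraries were mapped to GRCm38 (mm10) with SNAP, filtered with SAMtools, freed of duplicates and blacklisted regions, and peaks were called per library with MACS2 2.1.1 by the authors; the list of Tomato+ replicate 6, the only one with a header, names MACS 2.1.0.20150731 with p at most 0.01, an extension of 73 bases and no control, and a run name that mentions YFP, and its GEO label was followed. For each peak summit the deposited lists give the pileup (a signal, tags stacked at the summit), the −log10 p and −log10 q, and the fold enrichment, a ratio of the pileup to the local background with 1 added to both. Read counts were not analysed here, so depth was inferred from the genome-wide background level, and fold enrichment was not tested as counts. With no control library, the local background comes from the same reads, so dense open chromatin raises it and lowers the fold enrichment.

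Peaks with q at most 0.01 were merged over the 7 libraries where they overlapped by at least 1 base, and a region was kept where at least 2 libraries contributed; its value in a library is the best deposited peak there. Groups followed the labels. Log2 fold enrichment was quantile-normalised over the 33859 regions with a peak in all 7 libraries and fitted with limma 3.58.1 (R 4.3.3), 4 groups in 1 fit, Benjamini-Hochberg adjusted over all regions, with an adjusted p of at most 0.1 as the threshold; with 1 Tomato- library, that library is assumed to vary like the other groups. The labels call the libraries replicates without saying that embryos were separate, so p-values measure the spread between these libraries. Merging and overlap, and the limma fit, were tested on simulated data. Feature classes used RefSeq genes of GRCm38.p6; regions were called repeated when at least 50% of their bases were soft-masked. Other steps used Python 3.11.15, pandas 2.3.3, SciPy 1.17.1 and pysam 0.24.0. The 7 members, the gene lists, the motifs and the regions named (start sites, the regions open in all libraries, those in a presence class and the tallest) were chosen with earlier results of these data known, and lists are given as counts without tests. Alternatives were a q of at most 0.0001, an overlap of 50% of the shorter peak, windows of 100 kb and median centring. Others were regions with q at most 0.01 in all libraries and regions with a q-filtered peak of 1 library. The summit pileup scaled to the library's tags and a fold enrichment of 1 where no peak was listed were also used. Each library except the Tomato- library was left out in turn. Chosen after seeing the data were regions under 50% soft-masked and the order of libraries on the deposited fold enrichment.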

Additional observations from a re-analysis of the deposited data

How the results depend on the processing

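The member counts depended on the q threshold and on how many libraries a region needed. With q at most 0.0001 the chromosome 8 window held 11 regions and the chromosome 13 window 7, 5 members were shared by all 7 libraries, and 0 were in GFP+ and not GFP-, 0 in GFP+ and not Tomato+, and 0 in the Tomato- library and not Tomato+. With a q-filtered peak of any 1 library the windows held 77 and 53 regions, and 15 were in the Tomato- library and not Tomato+. Among regions under 50% soft-masked, an alternative chosen after seeing the data, 5 were shared by all libraries. With a fold enrichment of 1 where no peak was listed, limma called 2078 regions between GFP+ and Tomato+, 1944 between GFP+ and GFP- and 0 between Tomato+ and Tomato-. All 71981 regions then entered the fit. Libraries were left out in turn except the Tomato- library, the only library of its group, so dependence on it was not tested. Leaving out 1 library at a time gave 0 to 2 regions called between GFP+ and Tomato+ (2 without Tomato+ replicate 8), 1 to 3 members in GFP+ and not GFP- (3 without GFP- replicate 1, 2 without either GFP+ replicate), 0 to 2 in GFP+ and not Tomato+ (0 without GFP+ replicate 3, 2 without either Tomato+ replicate), 0 to 3 in GFP- and not GFP+ (3 without GFP- replicate 2), 1 to 2 in Tomato+ and not GFP+ (2 without Tomato+ replicate 6), 0 to 4 in Tomato+ and not the Tomato- library (3 without replicate 6, 4 without replicate 8), and 0 to 3 in the Tomato- library and not Tomato+ (0 without GFP- replicate 1). The GFP+ minus Tomato+ difference changed sign with single libraries at 3 start sites: it ran from -0.086 to 0.18 at Foxc1, from -0.14 to 0.49 at Foxc2 and from -0.43 to 0.39 at Foxf2, and with the summit pileup scaled to library size it was -0.011 at Foxc1 and 0.0096 at Foxf2. Of the other alternatives for the named differences, 74 kept their direction and stayed above the threshold. No paired analysis was run, because the labels do not say which libraries came from the same sort. The replicate numbers are unique to each library and do not settle this. Groups of 2 libraries and 1, and lists that hold no read counts, limit what these data can show: a peak below the authors' threshold is absent from a list, not shown to be closed.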
